A study of Xenopus laevis with 9 samples.

Results

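Long non-coding RNAs (lncRNAs) of the egg of the frog Xenopus laevis were followed through a filtration of undiluted egg cytoplasm. The members were all entries of type lnc_RNA in the copy in hand of the study's source table of RNA types. They numbered 52 of 1999 entries, beside 1901 mRNAs, 42 snoRNAs, 3 rRNAs and 1 guide RNA. They were joined by gene identifier to the table of read counts, which lists 44478 genes. Within the source table this choice used no measured value, but whether that table was itself limited by read level is not stated. The copy is shortened, and its entries with a known position lie on chromosomes 1L, 2S and 3L only. On 1L the entries flanking the lncRNAs lay between positions 60956542 and 95107262. The copy may therefore hold only parts of these chromosomes, and lncRNAs outside it were not analysed here.

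The cytoplasm came from eggs of wildtype females, arrested in metaphase, and every sample carried cytochalasin D and nocodazole, which keep actin and microtubules from polymerising. Total RNA was sequenced, after depletion of ribosomal RNA, from the unfiltered extract (input, time 0), from the filtrate collected early at low pressure (T1, time 1) and from the filtrate collected late at high pressure (T2, time 2). Each condition had 3 biological replicates, and time and pressure cannot be told apart. The RNA experiment is described as a filtration like that of the proteins of egg extract, through membranes with pores of nanometre scale. The comparison asks which RNAs pass a membrane freely, which pass late and which are held back.

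An lncRNA is a long transcript without a recognised protein-coding frame. Many are spliced, capped and polyadenylated like mRNAs. Some act in the nucleus on chromatin, others in the cytoplasm, where several serve as scaffolds of ribonucleoprotein assemblies. The egg is transcriptionally silent, so the RNAs found in it were stored during oogenesis. The files give these 52 genes as identifiers only, with no name, function, length or sequence, and no role is assigned to any of them here. Levels are therefore counts scaled to library size (CPM) and not per unit of length, and differences in CPM between genes are differences in read number.

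The libraries held 65503682 to 90000652 reads on genes in the input, 23509338 to 37265313 at T1 and 60330615 to 93451602 at T2. Reads that did not map made up 7.23 to 7.71% in the input and 12.4 to 20.1% at T1, and the part of this difference in the results below was not tested. The RNAs of 5 egg genes in the table (zar1l.S, zp4.L, dnd1.L, gdf9.L and ccnb2.L) had 54.6 to 438 CPM in the input. No member of the lists for follicle cells (7 symbols) or blood (8 symbols) was found in the source table, and these were not analysed here. CPM is a share of each library, so a lower share cannot be told apart from a rise of other RNAs. Unless said otherwise, CPM below was scaled by TMM (trimmed mean of M values), and each p-value is that of an edgeR quasi-likelihood fit, adjusted over the 20148 genes that passed a filter on low counts.

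All 52 lncRNAs passed the filter, which asks for about 0.153 CPM in at least 3 libraries. Of these, 27 reached that level in fewer than 3 filtrate libraries and so passed with the help of the input. Most of the lncRNAs had few reads. Their mean input CPM had a median of 1.08, with quartiles of 0.615 and 2.76 and a range of 0.2 to 134. The median over all genes tested was 15.8 CPM, and that over the 1890 mRNAs of the source table was 22.8 CPM. The lowest level was 0.00355 CPM over all genes tested and 0.204 CPM over these mRNAs. Whether the source table left out RNAs rare in the input was not tested.

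A library was taken to hold an RNA when it had more than 3 reads of it. In the input, 37 of the 52 lncRNAs (71.2%) were held by all 3 libraries, 14 by 2 and 1 by a single library. At T1, only 10 lncRNAs (19.2%) were held by all 3 libraries, 5 by 2, 18 (34.6%) by a single library and 19 (36.5%) by none. Of all genes tested, 56.3% were held by all 3 T1 libraries, 13.7% by a single one and 16.0% by none. The share of lncRNAs held by no T1 library was thus above that of all genes. In a T1 library 3 reads were worth 0.0827 to 0.161 CPM, and the lowest mean input level of an lncRNA was 0.2 CPM, close to this limit. The 19 held by no T1 library had mean input levels of 0.243 to 2.24 CPM (median 0.894), all above it. The part of depth in their absence was not tested.

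At T2, 19 lncRNAs (36.5%) were held by all 3 libraries, 10 by 2, 14 by a single library and 9 (17.3%) by none. All 10 lncRNAs found in every T1 library were found in every T2 library. Of the 19 absent at T1, 5 were absent at T2 too, 9 were held by 1 T2 library, 2 by 2 and 3 by all 3. The number of lncRNAs held was 47, 44 and 49 in the input libraries, 21, 24 and 13 in the T1 libraries and 29, 37 and 25 in the T2 libraries.

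**Figure D1:**
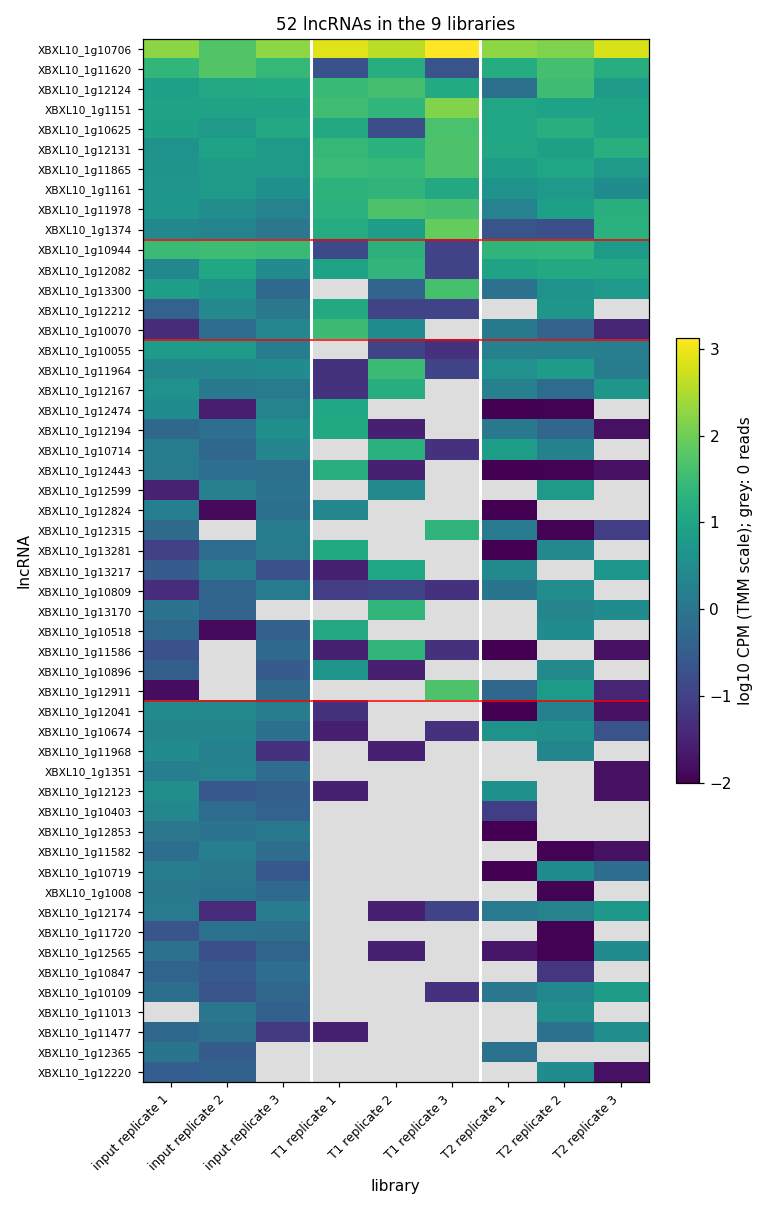
Log10 CPM (TMM scale) of the 52 lncRNAs (rows) in the 9 libraries (columns), with 0 reads in grey. Rows are ordered by the number of T1 libraries with more than 3 reads, from 3 at the top to 0 at the bottom with red lines between, and then by input level. The input columns are filled nearly throughout, while the T1 columns are grey for 22, 22 and 28 lncRNAs.

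The T1 pattern followed the read level in the input. The 19 lncRNAs held by no T1 library had mean input levels of 0.243 to 2.24 CPM (median 0.894), and the 18 held by a single one 0.2 to 4.59 CPM (median 0.734). The 5 held by 2 T1 libraries had 1.03 to 30.9 CPM (median 4.05), and the 10 held by all 3 had 1.82 to 134 CPM (median 7.80). Across the 52 lncRNAs, Spearman's rho between mean input CPM and the number of T1 libraries was 0.60, and 0.58 for T2. The points share the same libraries, so no p-value was attached. The ranges of the first and last of these 4 sets overlapped only between 1.82 and 2.24 CPM.

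**Figure D2:**
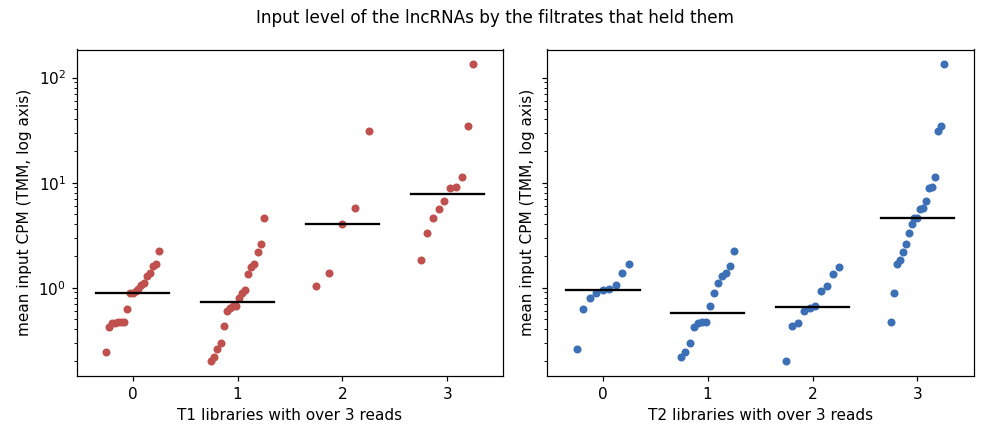
Mean input CPM (TMM scale, log axis) of each lncRNA, grouped by the number of T1 libraries (left) or T2 libraries (right) with more than 3 reads. Points are lncRNAs and black lines are medians. The 10 lncRNAs found in all 3 T1 libraries lie between 1.82 and 134 CPM, and those found in none between 0.243 and 2.24 CPM.

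To set the lncRNAs beside genes with as many reads, the 3162 tested genes between the lncRNA quartiles of input level (0.615 to 2.76 CPM) were counted in the same way. At T1, 53.3% of these genes were held by no library, 30.0% by a single one, 10.9% by 2 and 5.82% by all 3. Of the 26 lncRNAs in that band, 12 (46.2%) were held by none, 11 (42.3%) by a single one, 2 by 2 and 1 by all 3. At T2, 9.77% of the band's genes and 8 of its 26 lncRNAs (30.8%) were held by none. In a second deposited table, of normalized counts, XBXL10_1g12824, among these 8, had 207, 115 and 378 T2 reads. XBXL10_1g12853, also among them, was absent from it. These shares are a description without a test.

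**Figure D3:**
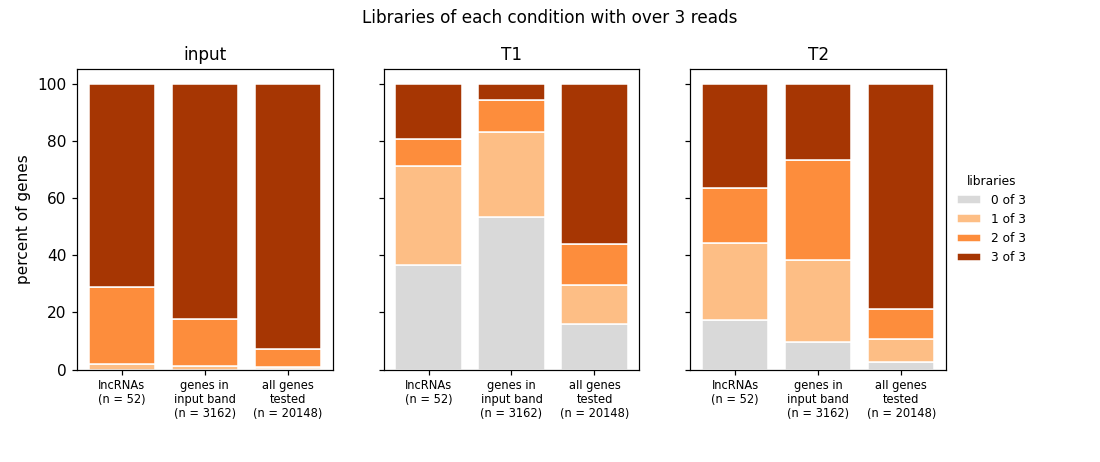
Percent of genes with more than 3 reads in 0, 1, 2 or 3 of the 3 libraries of the input, T1 and T2. The sets are the 52 lncRNAs, the 3162 genes between the lncRNA quartiles of input level (the band) and all 20148 genes tested. At T1 the share held by no library is 36.5% for the 52 lncRNAs, 53.3% in the band and 16.0% over all genes. For the 26 lncRNAs within the band, not drawn, it is 46.2%.

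The lncRNAs that reached the T1 filtrate often did so in 1 library and with many reads. Of the 18 held by a single T1 library, 7 were in T1 replicate 1 (86 to 606 reads), 9 in T1 replicate 2 (4 to 1130 reads) and 2 in T1 replicate 3 (390 and 908 reads). For the 41 lncRNAs with any read at T1, a median of 99.5% of the summed CPM lay in the highest library. That median was 53.4% in the input and 78.2% at T2, and over all genes tested the T1 median was 60.9%, beside 40.7% for the input and 47.6% for T2. In the input band it was 99.7% at T1, so the concentration in 1 library was shared with other genes of as few reads.

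The 4 lncRNAs XBXL10_1g11586, XBXL10_1g12443, XBXL10_1g12474 and XBXL10_1g12911 showed this in the extreme. XBXL10_1g11586 had 13, 0 and 55 reads in the input, 1, 821 and 1 at T1 and 1, 0 and 1 at T2. XBXL10_1g12443 had 89, 54 and 74 reads in the input, 606, 1 and 0 at T1 and 1, 1 and 1 at T2. Both had reads in the input, at most 1 read in any T2 library and many reads in only 1 T1 library, a different one for each. XBXL10_1g12474 had 209, 2 and 185 reads in the input, 419, 0 and 0 at T1 and 1, 1 and 0 at T2. XBXL10_1g12911, held by only 1 input library, had 1, 0 and 55 reads in the input, 0, 0 and 908 at T1 and 52, 563 and 2 at T2. None of these T1 means differed from the input beyond the spread, with fitted changes of 4.91, 2.57, 1.19 and 6.32 (log2) at adjusted p-values of 0.256, 0.495, 0.800 and 0.243. The fitted log2 fold change at T1 was -2.62 for XBXL10_1g11586 without T1 replicate 2 and -6.82 for XBXL10_1g12911 without T1 replicate 3. The deposited normalized table holds other reads for XBXL10_1g12911 and XBXL10_1g12443. There XBXL10_1g12911 had 0 reads in all 3 T1 libraries, with a T1 change of -6.70, and XBXL10_1g12443 had 70 reads in T1 replicate 1 in place of 606, while XBXL10_1g11586 and XBXL10_1g12474 had the same reads in both tables.

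The first comparison asks which lncRNAs differed between the early filtrate and the input. Of the 52, 2 were higher at T1 and 2 were lower at an adjusted p under 0.05. Over all genes tested, 6.44% were higher and 5.08% were lower, so 4 calls among 52 stood near the background. At an unadjusted p under 0.05 there were 6 higher and 12 lower lncRNAs. Of the 20148 genes tested, 2743 were higher and 3782 lower at that threshold. All 3 T1 libraries lay above all 3 input libraries for 8 lncRNAs (15.7% of all genes) and below them for 18 (27.8% of all genes). The 18 included the 7 lncRNAs that reached the filter's level in all 3 input and 0 filtrate libraries, which had to lie below.

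XBXL10_1g10706 had the most reads of the 52 lncRNAs in every library except input replicate 2, where XBXL10_1g11620 had more. Its identifier lies between those of zc3h10.S and pa2g4.S on chromosome 2S, genes at 129202529 to 129207462 and 129227277 to 129246556 in assembly Xenopus_laevis_v10.1. It had 11739, 3911 and 16560 reads in the input, or 134 ± 70.3 CPM (SD, n = 3). At T1 it had 27628, 13956 and 24727 reads (828 ± 468 CPM) and at T2 18166, 12268 and 38705 reads (320 ± 283 CPM). All T1 libraries were above all input libraries, while T2 overlapped both, with T2 replicate 3, at 645 CPM, within the T1 range. The log2 fold change at T1 was 2.63 (standard error 0.69, adjusted p = 0.0354). The pooled reads gave a share 4.81-fold higher (95% interval for counting error only, 4.75 to 4.87).

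XBXL10_1g1151 was the other higher lncRNA, and its identifier lies between those of LOC108710474 and sec24d.L on chromosome 1L. It had 632, 648 and 850 reads in the input, 1267, 841 and 2659 at T1 and 1057, 848 and 562 at T2. The input and T2 levels were 9.03 ± 0.277 and 9.68 ± 0.722 CPM, and the T1 level was 67.2 ± 65.5 CPM (SD, n = 3 each), with T1 replicate 3 at 143 CPM. T1 lay above both other conditions in every library. The log2 fold change at T1 was 2.89 (standard error 0.78, adjusted p = 0.0401), and that of T2 against T1 was -2.79 (adjusted p = 0.101).

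The lower lncRNAs were XBXL10_1g12853 and XBXL10_1g11582, which had no read in any T1 library. XBXL10_1g12853, with an identifier between those of sfmbt2.L and pfkfb3.L on chromosome 3L, had 73, 67 and 111 reads in the input and 1, 0 and 0 at T2. With a floor of 3 reads over the T1 libraries, its T1 share was at least 35.8-fold lower (adjusted p = 0.0484). XBXL10_1g11582 had 48, 114 and 65 reads in the input and 0, 1 and 1 at T2, and its T1 share was at least 32.4-fold lower (adjusted p = 0.0489). Their fitted log2 fold changes, -9.09 and -8.98, depend on the prior count. Both were near 0 in the late filtrate as well, so they passed the filter on low counts through the input alone. Of the 52 lncRNAs, 7 reached the filter's level in all 3 input libraries and in 0 filtrate libraries, and such a gene had to be lower in the filtrates, so these calls are given as a description.

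The 4 adjusted p-values lay between 0.0354 and 0.0489, close to the threshold. With 1 library left out, the log2 fold change at T1 was -9.21 to -8.91 for XBXL10_1g12853 and -9.16 to -8.47 for XBXL10_1g11582. With 0 reads at T1 these 2 ranges depend on the prior count and do not show stability. For XBXL10_1g10706 the log2 fold change ran from 2.12 to 2.99. For XBXL10_1g1151 it ran from 1.71, without T1 replicate 3, to 3.33. No lncRNA was called without input replicate 1, 2 or 3 (13, 13 and 14 at an unadjusted p under 0.05), without T1 replicate 3 (15 unadjusted) or without T2 replicate 1 (20 unadjusted). The count was 1 without T2 replicate 2 or 3, with XBXL10_1g10706 as the remaining call (adjusted p = 0.0402 and 0.0224). Without T1 replicate 1 the calls were 4 higher lncRNAs, XBXL10_1g10706, XBXL10_1g1151, XBXL10_1g11865 and XBXL10_1g11978, and 0 lower. Without T1 replicate 2 they were 3 higher, XBXL10_1g10706, XBXL10_1g1151 and XBXL10_1g11865, and 2 lower, XBXL10_1g10944 and XBXL10_1g11620, while XBXL10_1g12853 and XBXL10_1g11582 were not called (adjusted p = 0.123 and 0.125). DESeq2's Wald test called 13 (7 higher and 6 lower), and a fit of T1 and the input alone called 15 (3 higher and 12 lower). The counts that these fits gave over all genes are not reported here. XBXL10_1g10706 kept its call in 12 of 17 alternatives and XBXL10_1g1151 in 7 of 17. XBXL10_1g11582 kept it in 3 of 16 and XBXL10_1g12853 in 2 of 15.

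Other lncRNAs in all 3 T1 libraries were also well represented there. XBXL10_1g1374 had 170, 141 and 99 reads in the input, 519, 246 and 1491 at T1 and 21, 16 and 1107 at T2. T1 lay above the input in every library, yet at T2 only replicate 3 exceeded the input (log2 fold change at T1 4.21, standard error 1.86, adjusted p = 0.147). XBXL10_1g12124 had 550, 916 and 1254 reads in the input, 1077, 1428 and 257 at T1 and 78, 3084 and 411 at T2 (log2 fold change at T1 1.32, adjusted p = 0.488). XBXL10_1g11865, XBXL10_1g11978 and XBXL10_1g12131, named here after their values were seen, had T1 levels of 35.6 ± 12.6, 36.3 ± 15.8 and 31.6 ± 16.6 CPM against 5.62 ± 1.08, 3.29 ± 1.45 and 6.64 ± 2.51 CPM in the input (SD, n = 3 each). Their groups did not overlap, and their adjusted p-values were 0.0634, 0.0621 and 0.107.

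Among the lncRNAs with most reads in the input, XBXL10_1g11620 and XBXL10_1g10944 went the other way. XBXL10_1g11620 had 1564, 4113 and 2375 reads in the input, 7, 554 and 4 at T1 and 1490, 3806 and 936 at T2. XBXL10_1g10944, whose identifier follows that of ccna1.S, the gene of cyclin A1, on chromosome 2S, had 2090, 2523 and 2623 reads in the input, 5, 670 and 2 at T1 and 2250, 2185 and 375 at T2. In both, T1 replicates 1 and 3 were nearly empty and T1 replicate 2 was not. The log2 fold changes at T1 were -2.68 (standard error 1.49, adjusted p = 0.239) and -2.26 (standard error 1.60, adjusted p = 0.370). Without T1 replicate 2, with only T1 replicates 1 and 3 left, they were -7.40 and -7.95, with adjusted p-values of 0.00770 and 0.00767. With any other library left out they were -2.90 to -2.11 and -2.33 to -1.68. The lowest adjusted p-values there were 0.2565 and 0.3817.

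**Figure D4:**
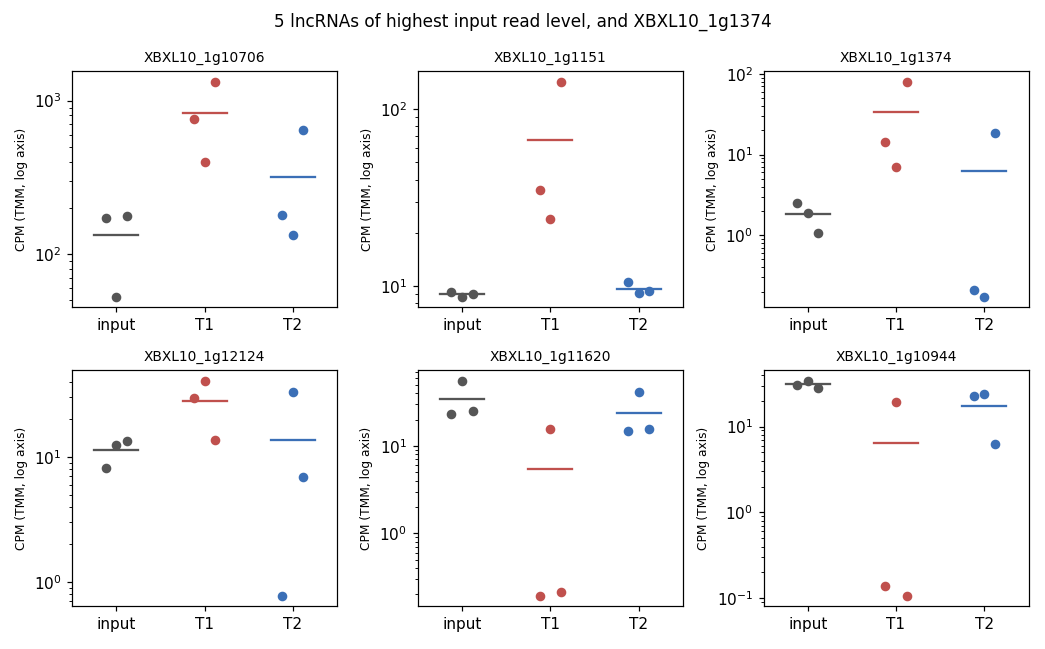
CPM (TMM scale, log axis) in each library (points) and its mean (line) in the input, T1 and T2 for the 5 lncRNAs of highest input read level and XBXL10_1g1374. XBXL10_1g10706 and XBXL10_1g1151 lie higher in all T1 libraries than in all input libraries, and XBXL10_1g11620 and XBXL10_1g10944 lie at 0.214 CPM or less in T1 replicates 1 and 3 but not in T1 replicate 2.

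The direction of the whole list at T1 depended on how replicates were combined. The fitted log2 fold changes ran from -9.49 to 6.32, with quartiles of -6.70 and 2.58, and 27 were above 0 and 25 below. Their median was 1.00, against -0.09 over all genes tested and -0.15 over the mRNAs of the source table. With each T1 library set against the mean of the input libraries on log2(CPM + 1), the medians were -0.55, -0.55 and -0.73, of the opposite sign. The 1 CPM added is close to the lncRNAs' median input level (1.08 CPM), so the size of these medians depends on it. The fitted median was also negative without T1 replicate 1, 2 or 3, at -3.68, -4.46 and -1.06. Over the 21668, 21703 and 21724 genes that passed the filter in these fits it was -0.55, -0.53 and -0.23. Without T2 replicate 1, 2 or 3, where the genes tested changed as well, the T1 median over all genes was -0.22, -0.22 and -0.21. The part of the changed set of genes was not tested. A list-wide direction at T1 was therefore not established.

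In the second comparison, the late filtrate against the input, edgeR called 0 of the 52 lncRNAs at an adjusted p under 0.05, and 0.0% of all genes. At an unadjusted p under 0.05 there were 8, all lower, beside 785 higher and 785 lower of the 20148 genes tested. Each of the 8 had at most 1 read in any T2 library. XBXL10_1g12824, among the 8 and named here after its values were seen, had 207, 115 and 378 T2 reads in the deposited normalized table. DESeq2's Wald test called 0 as well. The median log2 fold change was 0.31, against 0.14 over all genes, and it was -0.95 without T2 replicate 2. The T2 libraries lay below the input in every library for 11 lncRNAs (12.8% of all genes) and above it for 1 (14.1% of all genes). The 11 included the 7 lncRNAs that reached the filter's level in all 3 input libraries and in 0 filtrate libraries. Such a gene had to lie below the input, and part of the 8 above were of this kind. These counts are therefore given as a description.

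The single lncRNA above the input in all 3 T2 libraries was XBXL10_1g10109, whose identifier lies between those of khdrbs1.S and tmem39b.S on chromosome 2S. It had 48, 16 and 45 reads in the input, 0, 0 and 1 at T1 and 105, 225 and 388 at T2. Its share was nearly nil in the early filtrate and above that of the input in the late one (T2 against input, log2 fold change 2.82 with a standard error of 1.85 and an adjusted p of 1.00; T2 against T1, 7.64 with an adjusted p of 0.125).

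A group of 5 lncRNAs was present in every input library and had at most 1 read in any filtrate library, namely XBXL10_1g1008, XBXL10_1g1351, XBXL10_1g11582, XBXL10_1g11720 and XBXL10_1g12853. XBXL10_1g1008 and XBXL10_1g11720 are named here after their values were seen. XBXL10_1g1351 had 103, 147 and 64 reads in the input, 0 at T1 and 0, 0 and 1 at T2. Its T1 share was at least 44.8-fold lower (adjusted p = 0.0557). The T2 share was 332-fold lower (counting interval 59.2 to 13200, adjusted p = 0.326), which rests on 1 read, under the floor of 3 reads used at T1. These 2 sizes cannot be set against each other. In the deposited normalized table it had 87 reads in input replicate 2 in place of 147. The input reads of XBXL10_1g1008 were 77, 73 and 53 and those of XBXL10_1g11720 were 15, 64 and 73. XBXL10_1g10403 came close to this group, with 156, 48 and 38 reads in the input, 0 at T1 and 9, 0 and 0 at T2.

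The third comparison asks which lncRNAs differed between the early and the late filtrate. edgeR called 0 of the 52 at an adjusted p under 0.05, where 0.0993% of all genes were called. At an unadjusted p under 0.05 there were 14, of which 8 were higher and 6 lower at T2. Of the 20148 genes tested, 2944 were higher and 1634 lower at that threshold. DESeq2's Wald test called 10 lncRNAs (6 higher and 4 lower), and its count over all genes is not reported here. Leaving out T1 replicate 1 gave an edgeR count of 1, and leaving out T1 replicate 2 gave 3. The counts that these 2 fits gave over all genes are not reported here either, so these counts cannot be set against a background. T2 libraries lay above T1 in every library for 5 lncRNAs (13.2% of all genes) and below for 6 (7.73% of all genes). The median log2 fold change was -0.56. It was -1.02 with lncRNAs at 0 in T1 set to their bound and those with at most 3 reads in each filtrate left out. Without T1 replicate 1, 2 and 3 the fitted median was 1.58, 1.73 and 0.88. It was 0.25, 0.27 and 0.12 over the 21668, 21703 and 21724 genes that passed the filter in these fits. As with T1, no direction held over the list.

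A pattern of loss and return was defined by mean CPM, scaled by library size, with a T1 mean 4-fold or more below the input mean and a T2 mean 2-fold or more above the T1 mean. It took in 23 of the 52 lncRNAs, and 21.6% of all genes tested. Of the 23, 5 had 0 reads at T1 and only 1 or 2 at T2, and so met the rule on 1 or 2 reads. The other 18 had 6 to 6232 reads at T2. With 0 reads at T1, any read at T2 met the second part of the rule. XBXL10_1g10847, named here after its values were seen, and XBXL10_1g10403 met it on 6 and 9 T2 reads. Their pooled T2 shares were 20.5-fold and 28.4-fold below the input, so they did not return to its level. With the mean of at least 1 CPM required, it took in 7 of 34 lncRNAs and 15.9% of all genes.

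Of the 18, 6 were held by all 3 T2 libraries, namely XBXL10_1g11620, XBXL10_1g10944 and XBXL10_1g10109, described above, and XBXL10_1g10055, XBXL10_1g10674 and XBXL10_1g12174. XBXL10_1g10055, whose identifier precedes that of hnrnpr.S on chromosome 2S, had 461, 409 and 138 reads in the input, 0, 4 and 1 at T1 and 173, 157 and 92 at T2. Its mean level was 4.59 ± 2.78 CPM before filtration, 0.0559 ± 0.0570 CPM early and 1.65 ± 0.102 CPM late (SD, n = 3 per condition). All T2 libraries lay above all T1 libraries (log2 fold change 4.84, standard error 1.94, adjusted p = 0.184). XBXL10_1g10674 had 143, 166 and 70 reads in the input, 1, 0 and 1 at T1 and 421, 330 and 12 at T2. Here too the groups did not overlap (log2 fold change of T2 against T1 6.61, standard error 2.25, adjusted p = 0.145). XBXL10_1g12174, named here after its values were seen, had 82, 3 and 134 reads in the input, 0, 1 and 2 at T1 and 122, 176 and 322 at T2, with all T2 libraries above all T1 libraries (T2 against T1, adjusted p = 0.174). In pooled reads the T2 share was 6.23-fold above that of the input for XBXL10_1g10109, 2.68-fold above it for XBXL10_1g12174 and 1.90-fold above it for XBXL10_1g10674. It was 1.37-fold below it for XBXL10_1g11620, 1.59-fold below it for XBXL10_1g10944 and 2.53-fold below it for XBXL10_1g10055. None of these differences between T2 and the input passed the test.

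In the raw counts, 9 of the 18 were held by 1 T2 library, XBXL10_1g10403 and XBXL10_1g10847 among them. The first 5 of the following were too. XBXL10_1g11968 had 202, 134 and 5 reads in the input, 0, 1 and 0 at T1 and 0, 205 and 0 at T2. XBXL10_1g12041 had 188, 189 and 133 reads in the input, 2, 0 and 0 at T1 and 1, 166 and 1 at T2. XBXL10_1g12123 had 225, 18 and 33 reads in the input, 1, 0 and 0 at T1 and 372, 0 and 1 at T2. The T2 reads of these 3 lay almost wholly in replicate 2, 2 and 1. The deposited normalized table holds other T2 reads for XBXL10_1g12041 (11, 166 and 1) and XBXL10_1g12123 (372, 0 and 78). There, each of them was held by 2 T2 libraries. XBXL10_1g11013 had 0, 76 and 34 reads in the input, 0 at T1 and 0, 312 and 0 at T2. In the normalized table its reads were 0, 34 and 0 in the input and 0, 244 and 0 at T2. XBXL10_1g12220 had 23, 29 and 0 reads in the input, 0 at T1 and 0, 275 and 1 at T2. XBXL10_1g10719, held by 2 T2 libraries, had 98, 81 and 23 reads in the input, 0 at T1 and 1, 282 and 41 at T2, and its log2 fold change of T2 against T1 was 7.37 without T2 replicate 2 and 9.33 with it. Against the floor of 3 reads at T1, the last 3 were at least 42.1-fold, at least 37.2-fold and at least 43.7-fold higher at T2, with adjusted p-values of 0.240, 0.219 and 0.150. Over the list, 10 lncRNAs were held by T2 replicate 2 alone, 3 by T2 replicate 1 alone and 1 by T2 replicate 3 alone.

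**Figure D5:**
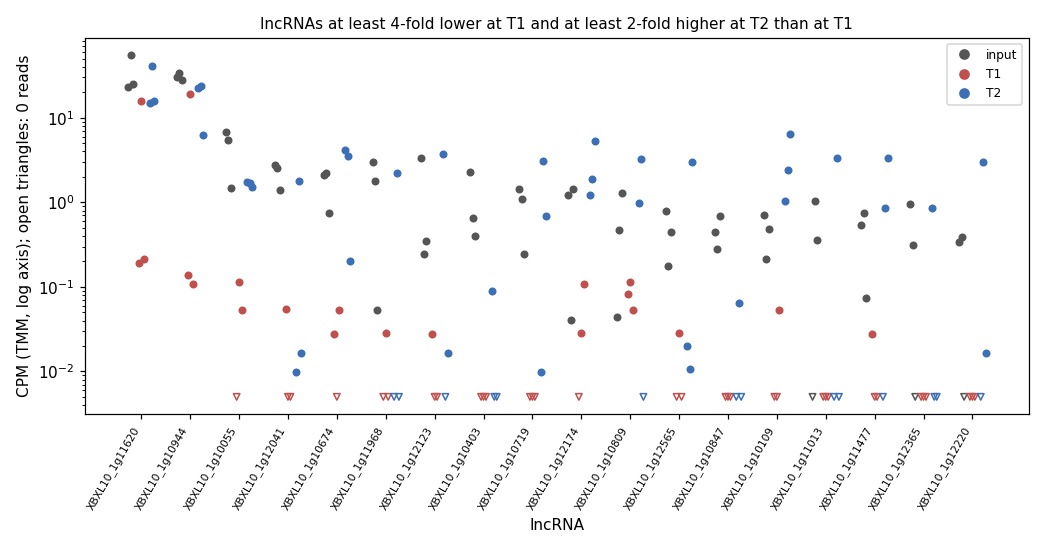
CPM (TMM scale, log axis) in each library of the 18 lncRNAs that met the rule of loss and return with more than 3 T2 reads together. They are ordered by input level. Filled points are libraries with reads (input grey, T1 red, T2 blue) and open triangles on the floor are libraries with 0 reads. Of the 18, 9 were held by a single T2 library, and their other T2 points lie at or near 0.

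Summed over the 52 lncRNAs, the levels scaled by library size were 344.6, 261.5 and 336.5 CPM in the input, 1087, 728.6 and 1486 at T1 and 332.5, 401.4 and 803.2 at T2. XBXL10_1g10706 alone gave 21.2 to 54.7% of these in the input, 51.4 to 70.8% at T1 and 35.8 to 79.9% at T2. Without it the sums were 165.3, 206.1 and 152.5 in the input, 319.9, 354.1 and 433.9 at T1 and 138.1, 257.7 and 161.7 at T2. The T1 sums lay above those of the input in all libraries with and without it. The larger summed share at T1 stood beside fewer lncRNAs held.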

How the data were processed

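Reads were trimmed with Trim Galore, aligned with STAR to the X. laevis genome of Xenbase and counted per gene by the authors. The deposited raw counts were used as they stand, and which strand setting was counted is not stated. Reads outside genes made up 19.2 to 36.6% per library. A second deposited table holds signal, counts divided by DESeq2 size factors by the authors. Whole reads were recovered from it for 100% of values (within 0.05 of a whole number) and used as an alternative. No other column held sample values. Counts were fitted with edgeR 4.0.16 in R 4.3.3 (filterByExpr with a minimum of 10, TMM, all 9 libraries, quasi-likelihood test, Benjamini-Hochberg adjustment, threshold 0.05). The procedure was run on simulated counts with known changes, and its rates of recovery and of false calls are not reported here. Alternatives were DESeq2 1.42.0, other scalings, filters and samples, a replicate block, and leaving out each library. Standard errors are approximate (size of the change over the root of F). Intervals and floors (3 reads over the libraries of a condition) cover counting error only. Named with every library's reads were lncRNAs called in any comparison and the 3 highest and 3 lowest fitted changes in each. So were the 5 of highest input CPM and the first 10 by input level in the class of loss and return. The members, lists and rules were chosen with earlier results of these data known. Positions come from the RefSeq gene table (Xenopus_laevis_v10.1), in which 1885 of 1999 entries matched once by symbol. Their identifier numbers ascended along the chromosome in 1882 of 1882 neighbouring pairs, which places an lncRNA identifier between genes in number only.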

Additional observations from a re-analysis of the deposited data

How the results depend on the processing

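The number of lncRNAs called at T1 against the input (4) was 2 with median-of-ratios size factors or a mean of at least 1 CPM, 1 with no filter beyond 1 count, 13 with DESeq2, 15 when the compared conditions alone were fitted and 0 to 5 with 1 library left out. Between T1 and T2 it was 10 with DESeq2 and 0 to 3 with 1 library left out. At T2 against the input it was 0 under all 17 alternatives. The counts over all genes under these alternatives are not reported here. The median log2 fold change at T1 (1.00) was 0.79 with library size only, 1.99 with a mean of at least 1 CPM, 1.31 with only the compared conditions, 0.17 with the recovered reads and -4.46 to 1.02 with 1 library left out. That of T2 against the input (0.31) ran from -0.95 to 0.50 with 1 library left out. That of T2 against T1 (-0.56) was -1.43 with a mean of at least 1 CPM, -1.40 with only the compared conditions, 0.45 with the recovered reads and -0.89 to 1.73 with 1 library left out. The replicate block, tried because the labels number the replicates, gave 1 call at T1 and medians of -1.88 at T1, -0.99 at T2 and 1.36 between them. The deviations of libraries with the same number correlated over 0.1 in 3 of 9 pairs (-0.02 to 0.32). Those of libraries with other numbers did so in 2 of 18 pairs (-0.33 to 0.16). These values do not settle whether the numbers pair the samples. The study counts 3 biologically independent samples for its 9 RNA experiments. That reads as each extract giving an input, a T1 and a T2, but which libraries share an extract is not stated. The main fit used no pairing, and a block on the numbers reversed the sign of each median. Library size scaling moved the median of all genes at T1 from -0.09 to -0.25. The class of loss and return (23) held 7 lncRNAs with a mean of at least 1 CPM. With 1 library left out, the log2 fold change at T1 ran from -2.62 to 6.33 for XBXL10_1g11586 and from -6.82 to 10.77 for XBXL10_1g12911, which was -6.70 with the recovered reads. That of T2 against T1 ran from 0.0 to 9.78 for XBXL10_1g11013 and from -9.31 to 2.29 for XBXL10_1g12474, and that of T2 against the input from -4.70 to 2.61 for XBXL10_1g12220. Except for the changes that come from fewer samples or fewer lncRNAs tested, the cause was not tested.

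Depth limits the T1 libraries most, with 3 reads worth up to 0.161 CPM. With 3 libraries a condition and most lncRNA reads at T1 in 1 library, means and fitted changes can rest on single libraries, and a missed threshold does not show equal levels. Overlapping or antisense transcripts could not be set apart.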

Other observations

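The 2 deposited tables did not hold the same reads for every lncRNA. Of the 52, 51 were in the normalized table, 34 with the same reads in all libraries and 17 with other reads. XBXL10_1g12853, with 252 reads over the 9 libraries of the raw table, was not in the normalized one. XBXL10_1g11964 had 2815 reads in the raw table and 1334 in the normalized one, XBXL10_1g12443 had 827 and 196, XBXL10_1g12911 had 1581 and 360, and XBXL10_1g12824 had 269 and 1322. These lncRNAs were picked here for their difference after it was seen. XBXL10_1g10706 and XBXL10_1g1151, the lncRNAs higher at T1, had the same reads in both.

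Each lncRNA was set beside the nearest entry with a symbol in number order, the preceding one where both sides were equally near. That entry changed in the same direction at T1 for 17 of 52 lncRNAs, and for 9 of the 31 whose neighbour was 1 number away. Across these, Spearman's rho of the T1 log2 fold changes was -0.13 and -0.10, over genes that share the 9 libraries. The T1 log2 fold change of zc3h10.S was -0.14 beside 2.63 for its neighbour XBXL10_1g10706, and that of ccna1.S was -0.19 beside -2.26 for XBXL10_1g10944.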
